A study of Capra hircus with 36 samples.

Results

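The miR-191 and miR-425 cluster was described in goat tissues through chi-miR-191-5p and chi-miR-425-5p, the 5p arms of both hairpins, and through their 3p arms. Members were chosen by row name, with both arms and with or without the prefix that marks a sequence conserved in other mammals, which gave 5 of the 1391 mature miRNAs counted. The pair was taken up with the 0 counts of miR-425-5p already known, so the levels and 0 counts of miR-425 are given as a description, with no test. Small RNA of 6 tissues (spleen, lung, liver, kidney, longissimus muscle and heart) was sequenced from adult female goats of about 3 years. The high-altitude group was 3 animals of the Tibetan Goat population living at 3000 m, and the low-altitude group was 3 animals of the Chuandong White Goat population living at 600 m. Each tissue therefore had 3 libraries per altitude, 36 in all, and population and altitude cannot be told apart in this design. Library totals, the sums of all miRNA counts, ran from 7108635 to 14407748 with a median of 10419740.5.

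Both hairpins are made from a single transcript in mammals, in which they lie close together within the locus of DALRD3. A hairpin is cut into a 5p and a 3p strand, of which usually a single one is kept in the silencing complex, so the arms of a hairpin and the members of a cluster start from a shared precursor but can reach different steady levels. miR-191 is broadly expressed and abundant in blood cells, and miR-425 has been studied mostly in tumours and growth signalling. In the RefSeq annotation of assembly ARS1.2, MIR425 lies inside the span of DALRD3, and MIR191 stands between NDUFAF3 and DALRD3.

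The tissue labels were checked against markers. In heart miR-208b-3p ran from 10283 to 16711 RPM (counts of a miRNA per 1000000 miRNA counts of its library), above its highest value of 3445 elsewhere, and miR-499-5p and miR-208a-3p were also above every library of the other tissues. In liver miR-122-5p was at least 6118 RPM against at most 207.9 elsewhere. In lung miR-34c-5p was at least 1914 RPM against at most 44.5, and miR-34b-5p at least 145.1 RPM against at most 5.11. In muscle 1 of 3 markers stood apart, miR-206-3p, at least 45.9 RPM against at most 8.72, while miR-1-3p (at least 1070 RPM against at most 21613) and miR-133a-3p (at least 178996 RPM against at most 186399) overlapped with heart. In spleen miR-142-3p was at least 3491 RPM against at most 601.8, while miR-142-5p (at least 7168 RPM against at most 21862) and miR-150-5p (at least 1690 RPM against at most 1863) overlapped with other tissues. Neither kidney marker with a row, miR-194-5p or miR-204-5p, stood above liver, where miR-194-5p was higher and miR-204-5p overlapped. Their sum ran from 1700 to 5317 RPM in kidney, below the 11752 to 23779 RPM of liver and above every library of the other 4 tissues. Each tissue was thus separated from the others by at least 1 marker or by this sum.

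miR-191-5p was counted in 36 of 36 libraries, from 7219 to 378607 counts. Its mean level was 26297 ± 15587 RPM (SD, n = 6) in spleen, 10847 ± 3883 RPM (SD, n = 6) in lung and 9422 ± 6278 RPM (SD, n = 6) in liver. It was 4213.5 ± 2313 RPM (SD, n = 6) in heart, 3833 ± 1607 RPM (SD, n = 6) in kidney and 1127 ± 570.9 RPM (SD, n = 6) in muscle. Muscle stood below kidney with no overlap of libraries, while each other pair of neighbours in this order overlapped. Within a goat, muscle was the lowest tissue in 6 of 6 animals and spleen the highest in 5 of 6, the exception having its highest level in lung. The tissue means of spleen and muscle differed 23.3-fold, or 10.2-fold with TMM-scaled CPM, and the tissue specificity index, which is 0 for equal levels and 1 for a single tissue, was 0.776. Since these are bulk tissues, fewer cells of a type and less RNA per cell cannot be told apart.

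In liver the high-altitude libraries held 2769, 4048 and 4382 RPM of miR-191-5p, and the low-altitude libraries 15381, 14158 and 15792 RPM. All 3 high-altitude livers lay below all 3 low-altitude livers, a pattern met by 13.0% of the 308 miRNAs with a mean of at least 10 RPM. In kidney the high-altitude libraries held 2489, 2139 and 2997 RPM, against 5134, 6243 and 3996 RPM in the low-altitude ones. The kidney groups did not overlap either, as for 7.79% of those miRNAs. Heart had 3040.4, 1309 and 3539 RPM at high altitude against 7067, 6970.2 and 3355 RPM at low altitude, and muscle had 651.2, 565.9 and 1044 RPM against 1965, 1679 and 854.6 RPM. Heart and muscle overlapped between altitudes, although the low-altitude mean was higher in both. Lung held 16135, 8178 and 13021 RPM against 13466, 6353 and 7929.7 RPM, and spleen 51773, 7482 and 15649.9 RPM against 33571, 20175 and 29129 RPM. Lung and spleen overlapped, and the highest and both of the lowest spleen values were from high-altitude goats.

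Tested with edgeR across all 1391 miRNAs, the log2 fold change of miR-191-5p, high over low altitude, was -1.89 in liver (SE 0.38, adjusted p = 0.214). It was -1.36 in heart (SE 0.49, adjusted p = 0.657), -0.97 in kidney (SE 0.59, adjusted p = 0.959) and -0.86 in muscle (SE 0.57, adjusted p = 0.799). In lung it was 0.71 (SE 0.57, adjusted p = 0.885) and in spleen -0.06 (SE 0.76, adjusted p = 1). A miRNA was called at an adjusted p under 0.05 when its log2 fold change was also 1.5 or more in size, and edgeR called 0 of the 3 rows of miR-191 in any tissue. The rule called 0.0% of all miRNAs in heart, kidney, liver and lung, 0.0719% in muscle and 0.144% in spleen. At an unadjusted p under 0.05 miR-191-5p passed in 2 of 6 tissues, heart and liver, as did 6.4% and 4.24% of all miRNAs there. Over the alternatives this count ran from 1 to 3, and liver was in it each time. The count was 1, without heart, with the replicate number as a block and with library size only. The same held without high-altitude replicate 2 or 3 and without low-altitude replicate 1 or 2, each left out alone. DESeq2 called it in 1 of 6, liver, with a log2 fold change of -1.81 (SE 0.39, adjusted p = 0.000176), where that tool called 2.23% of all miRNAs. Over the alternatives run for liver the adjusted p ranged from 0.000176 to 0.718. The interaction of tissue and altitude had an adjusted p of 0.803 for miR-191-5p in edgeR, where 0.216% of all miRNAs were called, so a difference in the altitude effect between tissues was not shown. The p-values within a tissue measure the spread between goats. The interaction fit had no term for the goat, although the tissues come from the same animals. Its p-value thus treats the tissues of a goat as independent. With the replicate number as a block the adjusted p of the interaction was 0.655 for miR-191-5p.

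Leukocyte markers were set beside the levels of miR-191-5p. All 5 of 5 listed miRNAs (miR-142-5p, miR-142-3p, miR-150-5p, miR-155-5p and miR-223-3p) had rows, with miR-142-5p the most abundant. In spleen their sum was 17602, 67519 and 62123 RPM in the Tibetan goats against 36570, 35256 and 40326 RPM in the others. The high-altitude spleen with the lowest sum had the highest miR-191-5p, and the one with the highest sum had the lowest. In liver the sum was 22824, 11667 and 10819 RPM at high altitude against 12832.5, 6323 and 10566 RPM at low altitude, so the altitudes overlapped in a tissue where miR-191-5p did not. Of the 5 markers, miR-223-3p was at 0 in low-altitude replicates 2 and 3 of both tissues. In heart the sum was 3509, 2002 and 2818 RPM at high altitude against 1924, 1885 and 1531 RPM, the only tissue in which the altitudes did not overlap. Of the 308 miRNAs with a mean of at least 10 RPM, 22.7% were likewise higher in all high-altitude hearts, the largest such share of any tissue.

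Of the 4 red-cell markers listed, 3 had rows (miR-144-5p, miR-144-3p and miR-486-5p), with miR-486-5p, also abundant in heart and muscle, the highest. In liver their sum was 343.0, 6381 and 4283 RPM at high altitude against 9100, 9952 and 8651 RPM at low altitude, so the altitudes were separated in the same direction as miR-191-5p. In spleen the sum was 11988, 836.6 and 998.1 RPM at high altitude against 4437, 4098 and 7646 RPM, and the library with the highest miR-191-5p had the highest sum. Both arms of miR-144 were at 0 in that spleen and in high-altitude liver replicate 3, and miR-486-5p was at 0 in high-altitude spleens 2 and 3. In kidney, where miR-191-5p was separated too, the red-cell sum overlapped, with 614.6, 89.6 and 757.6 RPM against 375.0, 504.9 and 363.0 RPM. The overlap rests on the kidney at 89.6 RPM, where miR-486-5p was at 0. In heart the sum was 23097, 12382.5 and 53788 RPM at high altitude against 15592, 17879 and 11880 RPM, and in muscle 16925, 43024 and 29160 RPM against 14319, 20179 and 13738 RPM. Both tissues overlapped, with the higher mean at high altitude, while the mean of miR-191-5p was higher at low altitude. Lung overlapped as well, with 18758, 0 and 5054 RPM against 6350, 5535 and 7364 RPM, and all 3 markers were at 0 in high-altitude replicate 2. The part of leukocytes and red cells in the levels of miR-191-5p was not tested.

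**Figure D1:**
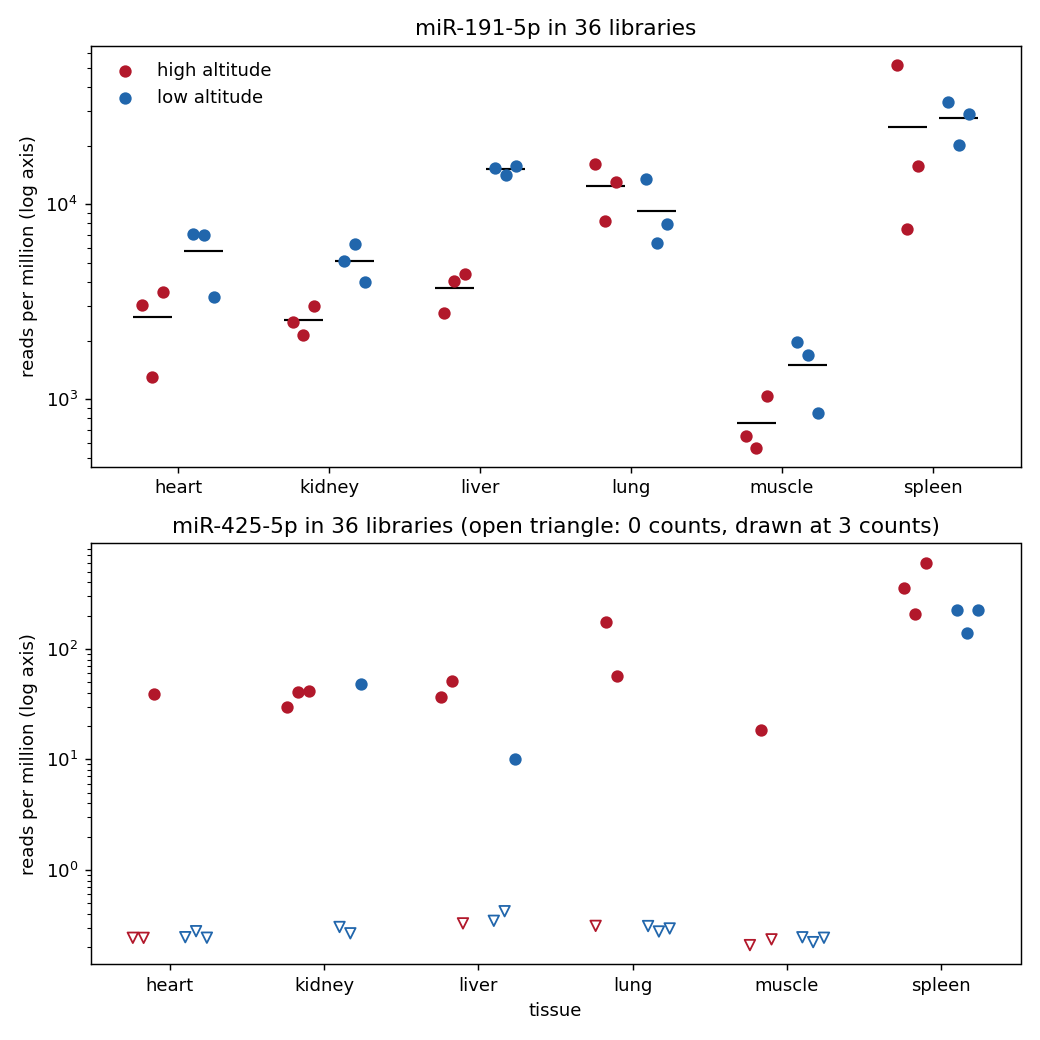
RPM (log axis) of miR-191-5p, upper panel, and miR-425-5p, lower panel, in 6 tissues, with 3 high-altitude (red) and 3 low-altitude (blue) libraries each; bars in the upper panel are means of 3, and open triangles in the lower panel are libraries with 0 counts, drawn at the level of 3 counts. miR-191-5p was counted in 36 libraries and miR-425-5p in 17.

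miR-425-5p was far scarcer, and in most libraries it had no count. In spleen it had 2593, 1932 and 6631 counts at high altitude (354.6, 204.6 and 602.5 RPM) and 2349, 1204 and 2022 counts at low altitude (223.7, 138.5 and 224.9 RPM). Spleen was the only tissue with a count in 6 of 6 libraries, and its altitudes overlapped. In kidney it had 320, 393 and 460 counts at high altitude against 0, 0 and 483, and in liver they were 290, 472 and 0 against 0, 0 and 84. In lung they were 0, 1799 and 574 at high altitude against 0 in all 3 low-altitude libraries. Heart had 462 counts in high-altitude replicate 3 and muscle 235 counts in high-altitude replicate 2, with 0 in the other 5 libraries of each tissue. The mean was 291.5 ± 167.8 RPM (SD, n = 6) in spleen, 38.4 ± 70.2 RPM (SD, n = 6) in lung and 26.6 ± 21.4 RPM (SD, n = 6) in kidney. It was 16.4 ± 22.3 RPM (SD, n = 6) in liver, 6.54 ± 16.03 RPM (SD, n = 6) in heart and 3.07 ± 7.52 RPM (SD, n = 6) in muscle. Without high-altitude replicate 2 the liver mean was 9.37 RPM and the lung mean 11.3 RPM. Every pair of neighbours in this order overlapped, and the tissue specificity index was 0.938.

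Over all libraries miR-425-5p was at 0 in 19 and above 0 in 17, with no count between 0 and 84. Of the 18 high-altitude libraries 6 were at 0, and of the 18 low-altitude libraries 13. A count of 0 allows a level of up to 0.208 to 0.422 RPM, taken as 3 counts of the library total, which covers counting error only. Both this limit and the folds that rest on it take a 0 as a level under the depth of the library. How the 0 counts arose was not tested, and they also occurred for abundant miRNAs. miR-99b-5p was at 0 in 23 libraries with a median of 43494 counts in the rest, and let-7a-5p at 0 in 16 with a median of 31519. Both arms of miR-99b were at 0 in its 23 libraries. The 16 of let-7a-5p were unlike these, since the other arm had at least 100 counts there and the hairpin was counted in all 36 libraries. In lung the summed high-altitude counts were at least 805-fold higher than 3 counts over the low-altitude group. Without high-altitude replicate 2, which held 1799 of the 2373 counts, the bound was 296.0-fold, and without low-altitude replicate 2 the bound was 520.6-fold. The same bound was 149-fold in heart and 74.8-fold in muscle, each resting on 1 library. Kidney, liver and spleen had counts at both altitudes, and in kidney and liver the low-altitude counts were all from replicate 3.

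Within a tissue, the 0 counts of miR-425-5p did not follow the level of miR-191-5p from library to library. Between tissues, spleen, the highest in mean miR-191-5p, had 0 libraries without miR-425-5p, and muscle, the lowest, had 5. Lung had 4, liver 3, heart 5 and kidney 2. Ranked by miR-191-5p from 1, the highest of the 6 libraries of a tissue, the libraries with 0 counts of miR-425-5p held ranks 1, 2, 5 and 6 in lung and ranks 1, 2, 4, 5 and 6 in heart. In lung, high-altitude replicate 1 had the highest miR-191-5p, 16135 RPM, with 0 counts of miR-425-5p, while high-altitude replicate 2 had 8178 RPM with 1799 counts. In muscle the library lowest in miR-191-5p, at 565.9 RPM, was the only library with miR-425-5p. In kidney the libraries ranked 1 and 2 were the ones at 0, and in liver those ranked 2, 3 and 4. The liver library ranked 1, at 15792 RPM, had 84 counts of miR-425-5p. Where both were counted, miR-191-5p exceeded miR-425-5p from 26.0-fold to 1579-fold with a median of 83.2-fold. In spleen the ratio was 146.0, 36.6 and 26.0 at high altitude against 150.1, 145.6 and 129.5, so high-altitude replicate 1 lay within the low-altitude range and replicates 2 and 3 below it.

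**Figure D2:**
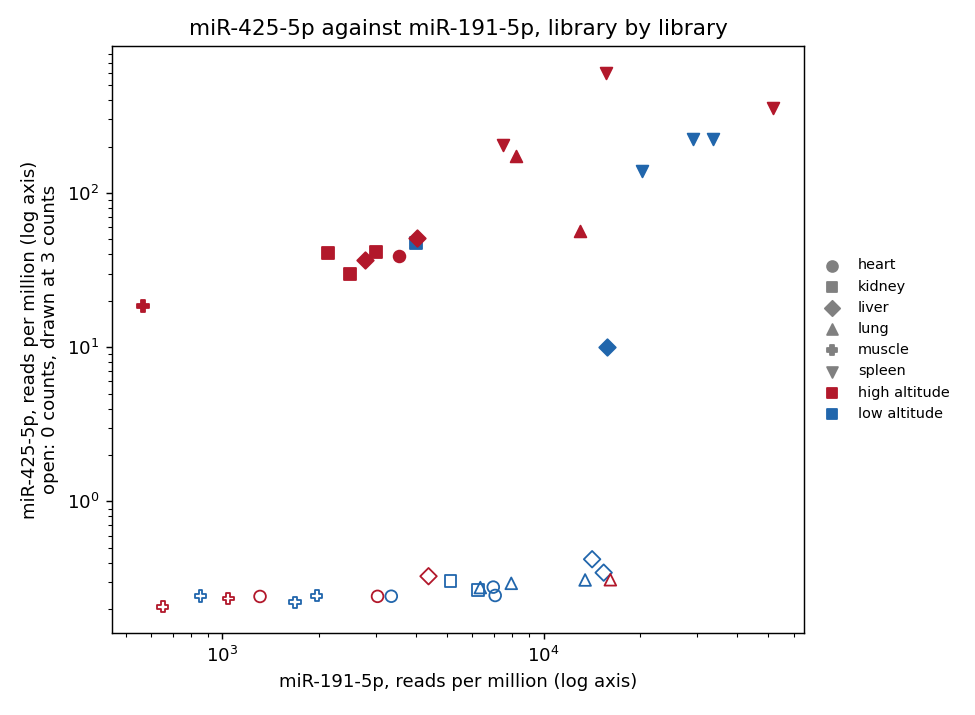
RPM of miR-425-5p (vertical, log axis) against miR-191-5p (horizontal, log axis) in 36 libraries, with the shape giving the tissue and the colour the altitude; open symbols are libraries with 0 counts of miR-425-5p, drawn at the level of 3 counts. Open symbols reach 16135 RPM of miR-191-5p, and a filled symbol stands at 565.9 RPM.

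The 3p arm of miR-425 was at 0 in the same 19 libraries as the 5p arm, and 0 libraries had a single arm. Where counted, miR-425-3p had 38 to 478 counts, and the 5p arm exceeded it in all but 1 of those libraries. The exception was low-altitude liver replicate 3, with 84 counts of the 5p arm and 115 of the 3p arm. The ratio of 5p to 3p counts otherwise reached 68.2, in high-altitude spleen replicate 1. A miRNA at 0 in part of the libraries and well counted in the rest was not particular to miR-425. Of the hairpins with both arms listed and a median of at least 100 counts where counted, 46 (24.1%) were at 0 for both arms in at least 1 library. With the counts of both arms summed, 23 of these 46, or 12.04% of all hairpins with that median, were at 0 in some libraries and never between 1 and 99, miR-425, miR-99b, miR-199b, miR-30c and miR-144 among them; these were chosen as examples after their values were seen.

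miR-191-3p, the scarcer arm of miR-191, was counted in 36 of 36 libraries, from 22 to 2117 counts. In heart it had 48.3, 26.3 and 43.5 RPM at high altitude against 14.4, 4.92 and 6.80 RPM. In liver it had 50.3, 47.8 and 36.6 RPM against 15.4, 7.46 and 11.0 RPM, and in lung 18.2, 35.5 and 24.7 RPM against 14.9, 7.47 and 8.35 RPM. High-altitude libraries were above all low-altitude ones in these tissues, as were 22.7%, 6.49% and 6.49% of the miRNAs with a mean of at least 10 RPM in heart, liver and lung. In muscle it had 20.3, 18.9 and 15.03 RPM against 3.84, 5.91 and 8.58 RPM, and in spleen 100.2, 82.4 and 192.4 RPM against 71.2, 11.4 and 28.4 RPM. The altitudes were separated there too, as for 10.1% of those miRNAs in each tissue. Kidney, with 11.1, 35.3 and 15.9 RPM against 2.23, 5.15 and 12.1 RPM, overlapped.

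Markers of other tissues were also higher at high altitude in part of the tissues. The sum of the 3 heart markers, miR-208b-3p, miR-499-5p and miR-208a-3p, was 286.6, 226.7 and 187.3 RPM in the high-altitude livers against 17.8, 140.7 and 19.5 RPM in the low-altitude ones, with miR-208a-3p at 0 in every liver. In lung it was 37.8, 20.1 and 104.9 RPM against 5.06, 17.9 and 10.01 RPM. The lung markers, 2 of 3 with rows and miR-34c-5p the most abundant, reached 16.1 RPM in the high-altitude hearts, all of which were above the low-altitude hearts at 2.29, 1.02 and 4.29 RPM, and summed to 30.5, 39.7 and 34.7 RPM in the high-altitude spleens against 11.7, 4.49 and 7.90 RPM. The kidney markers, 2 of 3 with rows, summed to at least 173.1 RPM in the high-altitude hearts against at most 127.5, and to at least 172.2 RPM in the high-altitude lungs against at most 149.9. Of the 30 sums of a tissue's list in another tissue, 10 were higher in all high-altitude libraries, 0 were lower in all of them and 20 overlapped. Single miRNAs with a mean of at least 10 RPM were higher in all of them for 22.7% in heart and 5.19% in kidney. The share was 6.49% in liver and in lung, and 10.1% in muscle and in spleen. Shares of such miRNAs lower in all of them ran from 7.79% in kidney to 14.3% in lung. None of the 10 was in muscle, where miR-191-3p was separated, and 3 were in kidney, where miR-191-3p overlapped and miR-191-5p was lower in all high-altitude libraries. In kidney the heart markers summed to at least 62.4 RPM at high altitude against at most 31.0, the lung markers to at least 11.6 RPM against at most 8.09, and the muscle markers to at least 663.8 RPM against at most 302.8. This count was added after the data were seen, and the part of RNA from other tissues in the levels of either arm of miR-191 was not tested.

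The edgeR log2 fold change of miR-191-3p was 1.96 in heart (SE 0.55, adjusted p = 0.484), 1.81 in kidney (SE 0.49, adjusted p = 0.719) and 2.08 in liver (SE 0.57, adjusted p = 0.612). It was 1.52 in lung (SE 0.54, adjusted p = 0.832), 1.73 in muscle (SE 0.52, adjusted p = 0.675) and 1.75 in spleen (SE 0.70, adjusted p = 0.729). No tissue passed the adjusted threshold in edgeR, while the unadjusted p was under 0.05 in 6 of 6 tissues, a limit also met by 5.75% of all miRNAs in spleen, 6.18% in muscle, 4.74% in lung and 4.6% in kidney, beside the shares given for heart and liver. That count fell to 3 with library size only and without low-altitude replicate 3, and to 4 without high-altitude replicate 1 or low-altitude replicate 2. It was 5 with the replicate number as a block and without high-altitude replicate 3 or low-altitude replicate 1, while the fold change was above 0 in 6 of 6 tissues each time. Of all miRNAs, 1 (0.0719%) was higher at high altitude at an unadjusted p under 0.05 in all 6 tissues, and it was miR-191-3p, which lost this place under the alternatives with a lower count; the measure was chosen after the values were seen, and the tissues come from the same animals. DESeq2 called miR-191-3p in 5 of 6 tissues, with log2 fold changes from 1.58 in lung (adjusted p = 0.0463) to 2.16 in liver (adjusted p = 0.00192). The tissue it did not call was spleen (adjusted p = 0.169). DESeq2 called 2.59% of all miRNAs in heart and in spleen, 1.73% in kidney, 2.16% in muscle and 1.58% in lung. The second 3p row, the conserved miR-191-3p, had at most 11 counts and was above 0 in 4 libraries, the 3 high-altitude hearts and 1 low-altitude kidney.

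Because the fold changes of the arms of miR-191 had opposite signs in heart, kidney, liver and muscle, their ratio was computed, as a measure chosen after the values were seen. In spleen the sign for the 5p arm, at -0.06 (SE 0.76), turned with the processing, and in lung both arms were above 0. In liver the ratio of 5p to 3p counts ran from 55.0 to 119.8 at high altitude and from 997.0 to 1899 at low altitude. In heart it ran from 49.8 to 81.4 against 490.3 to 1418, in kidney from 60.7 to 223.6 against 329.4 to 2305, and in muscle from 29.95 to 69.5 against 99.7 to 511.5. These 4 tissues did not overlap, while lung (230.3 to 885.0 against 851.0 to 950.2) and spleen (81.4 to 516.5 against 471.4 to 1771) did. Of 84 hairpins with both arms counted in every library and a median of at least 10 counts per arm, 15 (17.9%) had a lower ratio at high altitude without overlap in at least 4 of 6 tissues. Averaged over tissues within a goat, the log2 ratio of miR-191 differed by -2.75 between altitudes (3 goats against 3, exact two-sided permutation p = 0.1, the smallest this design allows). This shift ranked 3 by size among the 84 hairpins, whose median shift was -0.31, and 39 of the 84 had goats that did not overlap between altitudes.

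**Figure D3:**
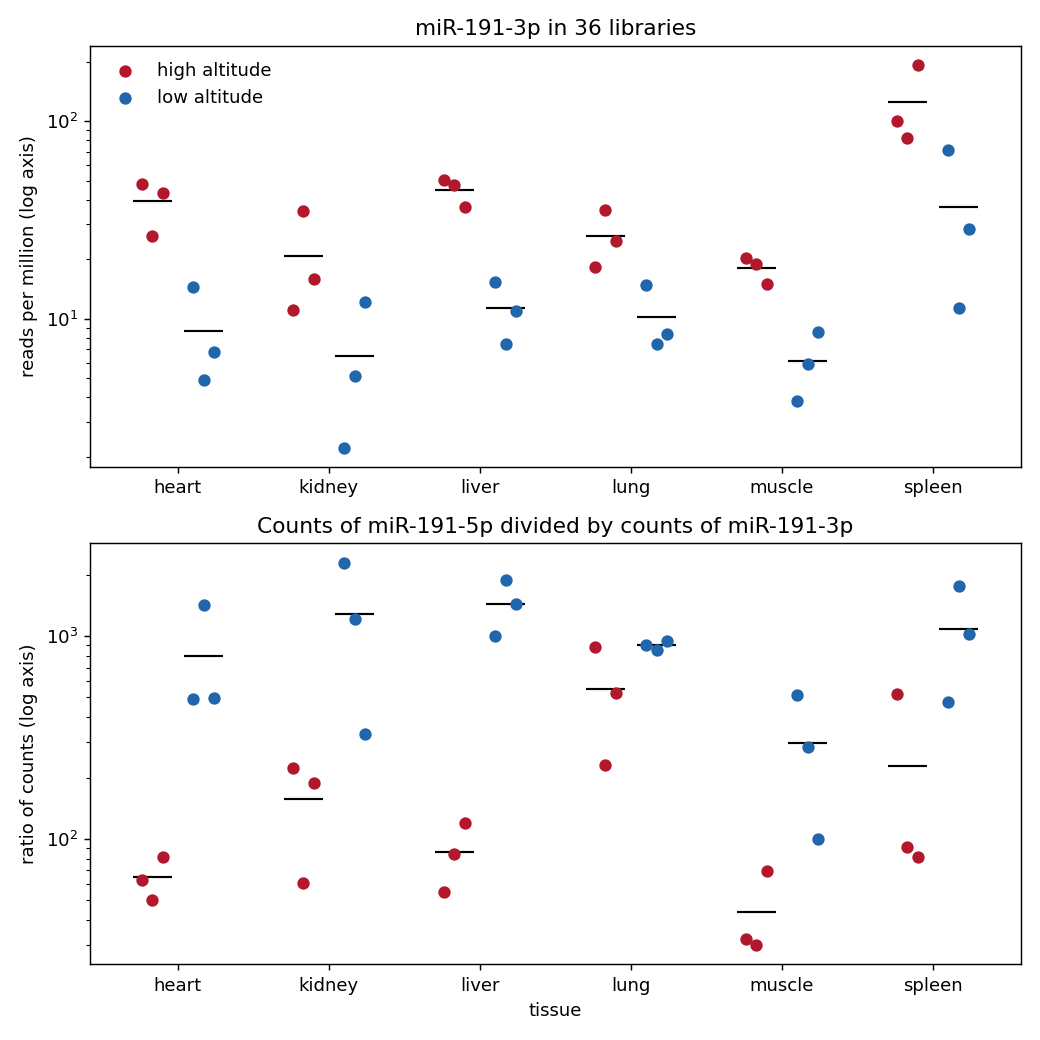
RPM of miR-191-3p, upper panel, and the ratio of miR-191-5p to miR-191-3p counts, lower panel, both on log axes, in 6 tissues with 3 high-altitude (red) and 3 low-altitude (blue) libraries each; bars are means of 3. The ratio did not overlap between altitudes in 4 tissues, and overlapped in lung and spleen.

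Averaged over the 6 tissues of a goat as log2(RPM + 1), miR-191-5p was 12.21, 11.40 and 12.18 in the high-altitude goats and 13.12, 12.80 and 12.52 in the low-altitude goats. The goats did not overlap, with a mean difference of -0.88 (exact two-sided permutation p = 0.1, the smallest that 20 assignments allow). All high-altitude goats were below all low-altitude goats for 15.9% of the 308 miRNAs with a mean of at least 10 RPM. With TMM-scaled CPM the goats overlapped (exact permutation p = 0.3). For miR-425-5p the values were 3.11, 5.08 and 4.30 at high altitude against 1.30, 1.19 and 2.81 at low altitude, a difference of 2.40. Since the 0 counts make this size depend on the added constant, it was 1.18 on log2(RPM + 10) and 3.68 on log2(RPM + 0.1). The goats did not overlap, and 37 (12.01%) of the 308 miRNAs were likewise higher in all high-altitude goats. miR-425-5p was above 0 in 3, 5 and 4 tissues of the high-altitude goats and in 1, 1 and 3 tissues of the low-altitude goats. The differences of the 5p arms thus had opposite signs on this scale.

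Likeness was measured as Pearson's r of log2(RPM + 1) over 36 libraries, which share tissues and goats, among miRNAs with a mean of at least 10 RPM. The 307 others compared with miR-191-5p were led by miR-145-3p (r = 0.86), miR-146a-3p (r = 0.84), miR-142-3p (r = 0.82), miR-15b-5p (r = 0.81) and miR-330-5p (r = 0.80). miR-425-5p came at rank 85 in that order (r = 0.39, Spearman's rho = 0.40). Most like miR-425-5p were miR-340-5p (r = 0.75), miR-191-3p (r = 0.68), miR-155-5p (r = 0.65), miR-150-5p (r = 0.61) and miR-25-3p (r = 0.61), and miR-191-5p stood at rank 69. The least like it were miR-345-3p (r = -0.62), miR-486-5p (r = -0.53) and miR-486-3p (r = -0.53). The 3p arm of miR-191 was thus closer to miR-425-5p in these libraries than the 5p arm was.

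The pattern of 0 counts of miR-425-5p was matched in 36 of 36 libraries by miR-425-3p. Next came miR-4286-3p, in 26 libraries, miR-210-3p, in 25, and miR-99b-5p, in 24, among 89 miRNAs at 0 in at least 1 library and with a median of at least 100 counts where counted. A goat miRNA without a counterpart in other mammals also agreed in 24, being at 0 in 31 libraries. A miRNA at 0 in every library would already agree in 19, so agreement in 24 to 26 is not read as a likeness. In a search for the opposite pattern among miRNAs at 0 in at least 9 of the 17 libraries with miR-425-5p, miR-199c-3p, miR-199c-5p and miR-92b-3p came first, each with at least 100 counts in 10 of the 19 libraries with 0 of miR-425-5p. They had as many in 7, 7 and 8 of those 17 libraries, so no opposite pattern was seen. Neighbours of miR-425-5p in mean level, which was 63.7 RPM at rank 172, were miR-335-3p, miR-455-5p and miR-148a-5p above and miR-708-5p, miR-130b-3p and miR-214-3p below. These 6 were at 0 in at most 2 libraries. miR-191-5p, at rank 23 with 9290 RPM, stood between miR-486-5p, miR-142-5p and miR-99a-5p above and miR-186-5p, miR-122-5p and miR-126-3p below.

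Other miRNA pairs from shared transcripts or loci gave a scale for the mismatch. miR-191-5p and miR-425-5p had 0 counts of one with at least 100 of the other in 19 libraries, and the log2 ratio, on RPM + 1, had an SD of 3.11. Of the 14 other pairs with both rows, 9 had 0 such libraries, and the median SD was 1.03. More such libraries than for the cluster were seen for miR-221-3p with miR-222-3p (33) and for miR-99b-5p with miR-125a-5p (23), and miR-200a-3p with miR-200b-3p had 8. The hairpin of miR-221 was nevertheless counted in 36 of 36 libraries, with its other arm at 100 counts or more in those 33. For miR-99b, as for miR-425, both arms were at 0 together. miR-25-3p with miR-93-5p and miR-23b-3p with miR-27b-3p, both with 0 such libraries, had SDs of 0.62 and 0.51.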

How the data were processed

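Small RNA libraries of 36 goat tissue samples were analysed from the authors' deposited whole-number read counts per mature miRNA and library, which are not normalized. The submitters' processing notes name CASAVA 1.8 and Bowtie, and per the paper's methods reads were mapped to assembly ARS1 and miRNAs were detected with miRDeep2. Members and lists were chosen with earlier results of these data known. RPM divides a count by the library's sum of miRNA counts; 3 counts served as the floor for a count of 0. Altitudes were compared within each tissue in edgeR 4.0.16 (R 4.3.3; TMM, glmQLFit, glmQLFTest, Benjamini-Hochberg over all 1391 miRNAs, no filter on low counts), called where the adjusted p was under 0.05 and the log2 fold change, high over low, was 1.5 or more in size. The standard error is the log2 fold change divided by the root of the F statistic. The interaction used 1 fit of 12 groups with 5 degrees of freedom and no term for the goat. Goats were compared by exact two-sided permutation (20 assignments), taking a replicate number to be the same goat in every tissue of an altitude, which the labels do not state. The script was tested on simulated data. Named miRNAs were both arms of the cluster, the 5 most and 3 least correlated, the 5 best matches of the 0 counts, 3 miRNAs from a search for the opposite pattern, 3 neighbours in level on each side, and pairs from shared loci; the arm ratio, the alternatives for counts of tissues at an unadjusted p and those for the lung bound and the fold of spleen over muscle were added after the data were seen. The fits included miR-425, whose tests are not used since its values were known when it was chosen. Of the listed pairs, 5 were not analysed here for want of a row. Alternatives were DESeq2 1.42.0, RLE size factors, library size only, filterByExpr, a replicate block, left-out libraries or goats, pseudocounts of 0.1 and 10 RPM, TMM-scaled CPM, summed arms and a limit of 10 counts for 0. Python 3.11.15 with NumPy 2.4.6, pandas 2.3.3, SciPy 1.17.1 and matplotlib 3.10.9 was used for the rest.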

Additional observations from a re-analysis of the deposited data

How the results depend on the processing

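Of 423 alternative values for 47 results, 394 kept their direction and their side of the threshold, or moved by less than a set limit. The limit was 1 SD, or 1.5 times for counts of tissues, bounds and the fold between tissues. A mean of 6 libraries cannot move by 1 SD when 1 is left out, so such values were kept by construction. Among them, the means of miR-425-5p in heart and muscle, 6.54 and 3.07 RPM, fell to 0. The permutation p over goats cannot fall under 0.05, so those results could only change direction. DESeq2 called miR-191-5p in liver (log2 fold change -1.81) and miR-191-3p in 5 tissues, which edgeR did not call; the cause was not tested. For miR-425-5p in lung, with all low-altitude libraries at 0, the DESeq2 fitted value was 12.08. In heart it was 22.85, against 10.13 in edgeR, and in muscle 21.80, against 8.97. These values are no bounds and are used as no test, although the fits of miR-425 are among the alternatives counted above. The fitted value of miR-425-5p moved from 1.91 to 11.66 in kidney and from 3.02 to 10.86 in liver without low-altitude replicate 3, and to 7.12 and 7.62 with the replicate block. In spleen the fold change of miR-191-5p, -0.06, turned positive with DESeq2 (0.065), RLE size factors (0.065) and filterByExpr (0.075), and with libraries left out in turn it ran from -1.40 to 0.40; in the same way the fitted value of miR-425-3p ran from -0.85 to 0.31. Leaving out high-altitude replicate 3 in heart or replicate 2 in muscle left miR-425 at 0 in all 5 libraries, so no fold change was computed. With TMM-scaled CPM the mean of miR-191-5p in muscle was 2039 in place of 1127 RPM, and the permutation p of its difference over goats was 0.3 in place of 0.1. Library size alone moved the median log2 fold change of miRNAs with a mean of at least 10 RPM in the tissue. It went to -0.20 in liver, -0.19 in lung, -0.18 in kidney, 0.11 in spleen and 0.18 in heart. In muscle it turned from 0.095 to -0.046. Counting 10 or fewer as 0, or summing the arms, left 19 libraries at 0.

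Replicate numbers belong to different goats at the 2 altitudes, so the samples were not paired. Deviations of same-numbered libraries nevertheless correlated at 0.49, 0.39 and 0.51 in heart, and below 0.1 for at least 1 pair in each other tissue. In heart every high-altitude library correlated best with the low-altitude library of its own number. With the number as a block the log2 fold change of miR-191-5p was -1.36 in heart (edgeR adjusted p = 0.865) and -1.93 in liver (edgeR adjusted p = 0.491), and no row of miR-191 was called. The tissues at an unadjusted p under 0.05 went from 2 to 1 for miR-191-5p, which lost heart, and from 6 to 5 for miR-191-3p, which lost lung. Where a 0 count stands for a low level, depth limits it to 0.422 RPM at the shallowest library; how the 0 counts arose was not tested.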
